A study of Mus musculus with 4 samples.

Results

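The genes of the Polycomb and trithorax groups, together with the enzymes that modify histones and methylate DNA, were examined for places marked by an antibody to PPP2CA, the subunit that carries the enzyme activity of the protein phosphatase PP2A. The 45 members were listed by name, and all 45 were found among the 21775 protein-coding genes of the RefSeq table of GRCm38.p6. The data are 4 CUT&Tag libraries of primary haematopoietic stem cells from the bone marrow of mice whose Ppp2ca gene is wild type, 2 made with the PPP2CA antibody and 2 with control IgG. In CUT&Tag an antibody tethers a transposase, which inserts sequencing adapters into the DNA close by. The age, strain and number of the mice are not given in the sources used here, and no group had Ppp2ca removed, so the specificity of the antibody was not tested.

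Polycomb repressive complex PRC2 methylates histone H3 on a lysine linked to gene silencing, and PRC1 reads that mark and ubiquitinates histone H2A. The PR-DUB complex removes this ubiquitin. Trithorax-group proteins of the COMPASS complexes methylate another lysine of histone H3 at active promoters and enhancers, acetyltransferases add acetyl groups there, and deacetylases and demethylases take such marks away. DNA methyltransferases place methyl groups on cytosines of CG dinucleotides, and the TET enzymes oxidise them. Many of these genes are known for their parts in the self-renewal of blood stem cells, among them Bmi1, Kmt2a, Dnmt3a, Tet2 and Asxl1.

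The PPP2CA libraries 1 and 2 held 16811 and 17686 peaks, and the IgG libraries 561 and 310. The median summit was 18 fragments high in PPP2CA 1 and 2 alike and 4 in IgG 1 and 2, and the lowest background of a PPP2CA list was 9.34 to 9.61 times that of an IgG list. Peaks of both PPP2CA libraries that touched were joined, and the 12438 joined regions found in both and free of an IgG peak are called PPP2CA regions here. Of 21771 joined places, 12631 were called in both PPP2CA libraries, and the others were not compared. Across the PPP2CA regions, none differed between the PPP2CA libraries by an exact binomial test of the summit fragments with Benjamini-Hochberg adjustment (0% of 12438, with 240, or 1.93%, at an unadjusted p under 0.05). These regions were kept because both libraries called them, which leaves out places called in 1 library only. The test therefore cannot show that the libraries differed by no more than sampling noise. Both are counted as 1 sample, since nothing says that they came from separate mice. Each library's own value is printed, without an average or error between them. A two-sided exact permutation test of 2 against 2 libraries cannot give a p below 0.333, and lists of genes are described by counts and medians and not tested. Among 10 stem cell marker genes, a region was at the boundary of 4 (Kit, Mecom, Runx1 and Tal1). That is 40.0%, about the same as the 39.5% of all protein-coding genes. Ly6a, Slamf1, Procr, Cd34, Hlf and Gata2 had no region at a boundary or in the body. A boundary region was found at 1 of 6 T and B cell, 0 of 5 myeloid, 1 of 4 erythroid and 0 of 5 stromal and endothelial markers. A region is not a measure of expression, so these counts do not test the labelled cell type.

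Most of the members had a PPP2CA region. A region lay within 1 kb of a gene boundary, meaning either end of the annotated gene, at 37 of 45 members (82.2%), against 39.5% of all protein-coding genes. A further 6 members had a region inside the gene only, which brought the count to 43 of 45, against 45.3% of all protein-coding genes at a boundary or in the body. Regions in the body only were found at 5.79% of all protein-coding genes. The remaining pair were Kmt2e, whose region also had an IgG peak, and Kdm5b, which had no peak in either PPP2CA library. In the 37 genes the best region held a median of 49 and 51 fragments in PPP2CA 1 and 2, against 29 and 32 over all marked protein-coding genes. The fold over the local background, the authors' own value, had a median of 6.92 and 7.33 in the members and 7.08 and 7.03 in all marked genes. The members thus had more fragments at the summit than marked genes in general at about the same fold. Expression in these cells, chromatin openness and base composition were not matched between the members and other genes, and their part in the difference was not tested.

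**Figure D1:**
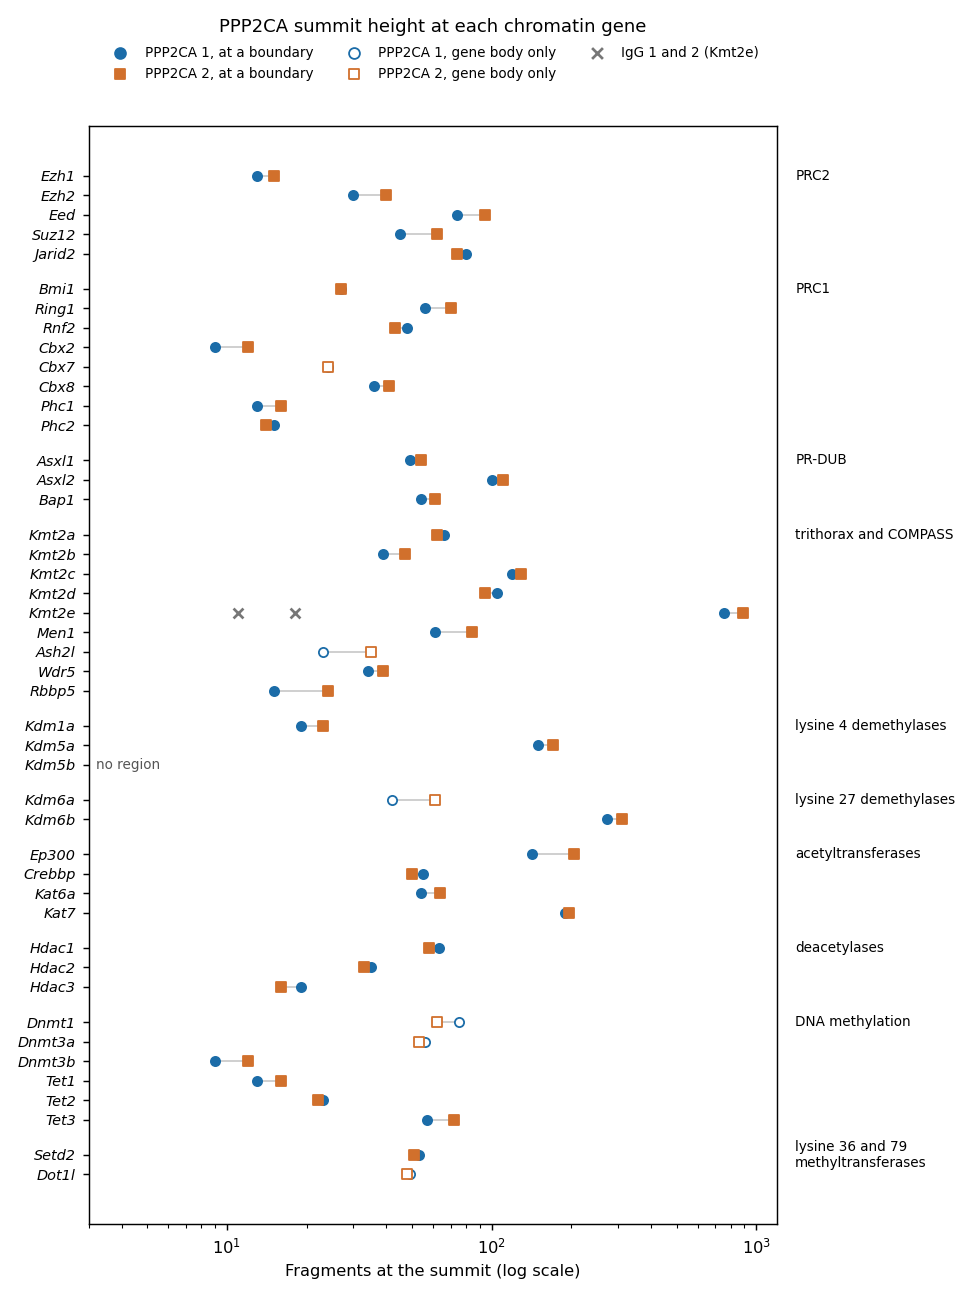
Fragments at the summit (log axis) of the best PPP2CA region of each member in PPP2CA 1 (circles) and PPP2CA 2 (squares), by class. Filled symbols are regions at a gene boundary, open symbols regions in the gene body only, and crosses the IgG peaks at Kmt2e, whose PPP2CA summits of 755 and 893 fragments stand above all others. At most members the libraries lie close to each other, and Ep300 (142 and 204), Rbbp5 (15 and 24) and Ash2l (23 and 35) are among those further apart.

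Sequences are shown where they bear on these counts: the 250 bases before the RefSeq start (GRCm38.p6) of the member with the highest fold, Kat7 (chr11:95310247-95310496, minus strand), and of the highest Polycomb summit, Asxl2 (chr12:3426607-3426856, plus strand), each overlapped by a region. Capitals mark matches to CCAAT (the NFY motif) in Kat7, and to CCGGAAGT (an ETS motif) and to the reverse complement of GGGCGG (an SP motif) in Asxl2.
Kat7: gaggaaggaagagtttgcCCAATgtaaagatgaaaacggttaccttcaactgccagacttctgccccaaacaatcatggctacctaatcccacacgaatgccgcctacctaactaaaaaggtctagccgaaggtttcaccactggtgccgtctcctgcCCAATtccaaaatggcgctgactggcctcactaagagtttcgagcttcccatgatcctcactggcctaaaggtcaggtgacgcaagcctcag
Asxl2: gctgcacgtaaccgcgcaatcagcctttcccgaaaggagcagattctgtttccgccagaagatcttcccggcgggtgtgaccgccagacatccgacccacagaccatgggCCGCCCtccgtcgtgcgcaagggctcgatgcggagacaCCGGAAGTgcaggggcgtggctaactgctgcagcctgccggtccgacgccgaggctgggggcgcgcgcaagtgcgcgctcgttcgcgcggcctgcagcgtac

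Genes with several listed starts allow a comparison within a gene. For Dnmt1 (minus strand) the outermost start (bases shown from chr9:20959889-20960138) had no region, while the next start (chr9:20952980-20953229) lay under one. For Phc2 (plus strand) the first start (chr4:128654452-128654701) and the last (chr4:128727321-128727570) lay under a region and the middle start (chr4:128688488-128688737) did not. Capitals mark CG dinucleotides, of which the 250 bases shown held 2 at the outermost and 7 at the next start of Dnmt1, and 13, 1 and 34 at the first, middle and last start of Phc2.
Dnmt1 outermost, no region: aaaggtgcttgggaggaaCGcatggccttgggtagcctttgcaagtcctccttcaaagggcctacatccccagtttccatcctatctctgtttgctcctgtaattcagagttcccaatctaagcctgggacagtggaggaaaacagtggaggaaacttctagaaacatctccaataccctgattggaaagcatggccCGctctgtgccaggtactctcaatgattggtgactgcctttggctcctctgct
Dnmt1 next, with region: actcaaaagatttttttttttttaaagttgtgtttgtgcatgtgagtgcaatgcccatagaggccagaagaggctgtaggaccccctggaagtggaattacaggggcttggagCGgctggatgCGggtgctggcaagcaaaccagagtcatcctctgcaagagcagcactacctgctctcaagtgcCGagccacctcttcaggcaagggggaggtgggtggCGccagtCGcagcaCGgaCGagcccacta
Phc2 first, with region: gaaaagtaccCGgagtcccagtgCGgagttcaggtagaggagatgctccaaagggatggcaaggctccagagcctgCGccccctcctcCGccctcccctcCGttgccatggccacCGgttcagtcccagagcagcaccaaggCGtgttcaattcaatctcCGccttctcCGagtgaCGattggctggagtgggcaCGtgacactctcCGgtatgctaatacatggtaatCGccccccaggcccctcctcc
Phc2 middle, no region: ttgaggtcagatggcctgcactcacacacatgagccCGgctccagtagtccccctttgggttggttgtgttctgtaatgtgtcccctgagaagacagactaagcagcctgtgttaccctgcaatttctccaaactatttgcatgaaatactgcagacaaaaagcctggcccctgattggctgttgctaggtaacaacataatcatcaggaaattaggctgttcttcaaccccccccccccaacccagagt
Phc2 last, with region: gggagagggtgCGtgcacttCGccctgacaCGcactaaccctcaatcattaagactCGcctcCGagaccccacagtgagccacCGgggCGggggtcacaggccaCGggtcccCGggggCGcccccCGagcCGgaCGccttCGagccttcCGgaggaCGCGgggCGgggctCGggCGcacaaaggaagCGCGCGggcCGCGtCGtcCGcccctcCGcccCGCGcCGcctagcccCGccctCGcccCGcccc

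All 5 genes of PRC2 had a region at a boundary. The lysine methyltransferase gene Ezh2, on chromosome 6 at 47530274 to 47595270, had 30 and 40 fragments in PPP2CA 1 and 2 with a fold of 7.37 and 7.68. Its paralogue Ezh1 had the lowest values of the complex, 13 and 15 fragments with a fold of 6.24 and 4.91. With exact Poisson intervals at 95%, which cover counting error only, the Ezh1 counts allow 6.92 to 22.2 and 8.4 to 24.7 fragments and those of Ezh2 20.2 to 42.8 and 28.6 to 54.5. The intervals of the 2 genes thus overlapped in PPP2CA 1 and did not in PPP2CA 2.

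The non-catalytic PRC2 genes stood higher. Eed, whose protein binds the methyl mark that the complex makes, had 74 and 94 fragments (fold 10.7 and 10.3), and Suz12, the scaffold, had 45 and 62 (fold 9.13 and 10.8). Jarid2, which helps to bring the complex to DNA, had 80 and 74 fragments at its start at a lower fold of 6.58 and 5.53. Jarid2 was also marked inside the gene: a region 2524 bp downstream of its nearest listed start held 62 and 73 fragments, nearly as many as the start itself. A weaker one further in held 8 and 13. A further place in the Jarid2 body, at chr13:44869598-44869999, coincided with an IgG 2 peak and was left out: it held 8 and 11 fragments in PPP2CA 1 and 2 and 3 in IgG 2, which over the lowest background of each list is 10.2 and 13.7 against 36.

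PRC1 was marked at 7 of 8 genes but lower, with a median of 27 fragments in each PPP2CA library. The best ranked were Rnf2, the main ubiquitin ligase of the complex (48 and 43 fragments, fold 9.22 and 8.19), Cbx8, a reader of the PRC2 mark (36 and 41, fold 5.30 and 5.37), and Ring1, the second ligase (56 and 70). Ring1 had many fragments at the lowest fold among the members' best boundary regions, 3.71 and 3.69, and shared its region with the protein-coding gene H2-Ke6 and with Mir219a-1 and Mir219c. Bmi1, which activates the ligase, had 27 and 27 fragments at a place also within reach of Commd3. Cbx2 (9 and 12 fragments), Phc1 (13 and 16) and Phc2 (15 and 14) were weak at their boundaries, though Phc2 had a higher region at its last listed start, with 30 and 25 fragments.

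Cbx7, a reader of the PRC2 mark known to support stem cell self-renewal, was marked inside the gene only. The RefSeq gene runs from 79915804 to 79971143 on chromosome 15, but its listed start lies within it, and a region with 24 and 24 fragments had its summits 132 and 252 bp downstream of that start. A second region in its body held 17 and 10 fragments.

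All 3 PR-DUB genes were marked, and more evenly than PRC1. Asxl2 held 100 and 110 fragments (fold 10.9 and 9.87), Bap1, the deubiquitinase, 54 and 61 (fold 8.22 and 7.98) and Asxl1 49 and 54 (fold 8.21 and 8.67). Asxl1 and Asxl2 are the partners that activate Bap1. A second region at the other end of Bap1, within reach of Dnah1, held 15 and 16 fragments. Taking PRC2, PRC1 and PR-DUB as the Polycomb group, 15 of 16 genes had a boundary region and Cbx7 had one inside.

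Among the trithorax and COMPASS genes 7 of 9 had a boundary region, with a median of 61 and 62 fragments. Kmt2c, an enhancer methyltransferase, had 119 and 129 fragments with a fold of 9.21 and 8.97, in a region of 1681 bp. Kmt2a, the methyltransferase rearranged in leukaemia, had 66 and 62 fragments over a wider region of 2165 bp, and its paralogue Kmt2b had 39 and 47. The best boundary regions of Kmt2d and Men1 lay at the far end of the gene from their listed starts. That of Kmt2d, with 105 and 94 fragments, was shared with Prkag1, and that of Men1, with 61 and 84, with Map4k2. Closer to their own starts, Kmt2d had 48 and 42 fragments with summits at -898 and -839 bp (negative positions are upstream of the start), and Men1, which tethers Kmt2a to chromatin, had 30 and 34 fragments.

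The subunits common to the COMPASS complexes had fewer fragments than Kmt2c, the highest of the class without an IgG peak, as did Kmt2a, Kmt2b and Kmt2d. Wdr5 had 34 and 39 fragments, near the 39 and 47 of Kmt2b, and Rbbp5 15 and 24. Ash2l had no region at either outer boundary and 1 of 23 and 35 fragments (fold 7.09 and 7.82) inside the gene, 6119 bp from its high-coordinate end.

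Kmt2e was the one member whose boundary region had an IgG peak, and it also had the tallest summit of all members. The place at chr5:23432706-23434791 held 755 and 893 fragments in PPP2CA 1 and 2, against 18 and 11 in IgG 1 and 2. Divided by the lowest background of its own list, the summit stood at 963 and 1120 in the PPP2CA libraries, against 214 and 132 in the IgG libraries. By this measure the PPP2CA value was 4.49 to 8.45 times the IgG value, depending on the pair of libraries. The fold over local background, a value made within each list, was much closer. It was 8.9 and 8.94 in PPP2CA 1 and 2, against 7.84 and 6.09 in IgG 1 and 2. In all, 4 of 45 members had an IgG peak in the gene or within 1 kb of it, against 2.08% of all protein-coding genes. Gene length was not matched in this comparison, and the members are longer, with a median of 42.4 kb against 17.2 kb. The peaks in Rnf2, Jarid2 and Ep300 came from IgG 2 alone and held 3 or 4 fragments inside the gene, so without IgG 2 the count was 1 member.

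The IgG lists are shallow, and a region without an IgG peak can still hold control signal. Scaled to the lowest background of either IgG library, the best boundary region of 26 of the 37 members would hold at least 3 fragments, the lowest summit called in IgG, if the control signal equalled that of PPP2CA. For the other 11, namely Ezh1, Bmi1, Cbx2, Phc1, Phc2, Rbbp5, Kdm1a, Hdac3, Dnmt3b, Tet1 and Tet2, the scaled height was under 3 fragments, so a control signal of equal strength could have gone uncalled at this depth. The 26 are not cleared by this count. A summit of 3 fragments is the lowest called anywhere in IgG, and the local background of each region was left out of the scaling.

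The demethylases of histone H3 differed widely. Kdm5a, which removes the mark that COMPASS makes, had 150 and 171 fragments (fold 11.0 and 10.9) at a place shared with Ccdc77. Its paralogue Kdm5b had no peak within the gene or 1 kb of it. Kdm1a, a flavin-dependent demethylase, had 19 and 23 fragments. On the opposing side, Kdm6b, which removes the PRC2 mark, had the tallest boundary summit without an IgG peak, 273 and 311 fragments (fold 7.37 and 7.33) in a region of 1896 bp. That region was no longer counted when a summit of each library had to lie within 1 kb of the boundary. A body region of 3144 bp at chr11:69408757-69411900 stood higher still, with 511 and 552 fragments, and another held 95 and 127. The X-linked Kdm6a had no boundary region by a small margin: its region of 42 and 61 fragments (fold 7.40 and 9.39) began 1086 bp inside the gene, and its summits lay at -243 and -2 bp from its listed start.

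All 4 acetyltransferase genes were marked, with the highest median of the classes with more than 1 marked gene, 98.5 and 130 fragments. Kat7, which acetylates histone H3 and H4, had 189 and 196 fragments with the highest fold of any member, 14.5 and 13.4, and ranked 99th of the 8606 marked protein-coding genes. Ep300 had 142 and 204 fragments (fold 9.31 and 11.5), the one member region where the libraries differed at an unadjusted p under 0.05 (exact binomial test, p = 0.0132, adjusted p = 1). Its paralogue Crebbp had 55 and 50 fragments and Kat6a 54 and 64.

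The 3 deacetylase genes were all marked, at a lower median of 35 and 33 fragments, though Hdac1 stood above Crebbp in both libraries. Hdac1 had 63 and 58 fragments (fold 10.2 and 8.39) and Hdac2 35 and 33 (fold 10.1 and 10.5), while Hdac3, which shares its place with Rell2, had 19 and 16 (fold 5.27 and 4.34). Of the writers of other histone H3 marks, Setd2 had 53 and 51 fragments at its start. Dot1l had regions inside the gene only, of 49 and 48, 22 and 32, and 15 and 17 fragments. Its start was covered by a peak of 60 fragments in PPP2CA 1 with a fold of 3.59 and by none in PPP2CA 2.

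The DNA methylation genes were marked at 4 of 6 boundaries, against 39.5% of all protein-coding genes. With regions inside the gene it was 6 of 6, against 45.3%. The median length of these genes is 82.2 kb, against 17.2 kb for all protein-coding genes, and length was not matched. Their boundary regions were the lowest of the 3 sides, with a median of 18 and 19 fragments. Tet3 had 57 and 72 fragments, Tet2 23 and 22, Tet1 13 and 16 and Dnmt3b 9 and 12. With at least 20 fragments asked of both summits, Tet2 and Tet3 remained, 2 of 6, against 26.5% of all protein-coding genes. Tet3 also had a region of 30 and 21 fragments at its listed start, which lies inside the gene.

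For the other methyltransferases the outer boundaries of the gene missed the marked start. Dnmt1, which copies methylation at replication, had 75 and 62 fragments with a fold of 12.5 and 10.4, with summits at -267 and -66 bp from its innermost listed start, and the region's nearer edge was 6516 bp inside the outer boundary. This was the highest fold among the DNA methylation genes. Dnmt3a, which sets new methylation and is often mutated in blood stem cells that expand with age in humans, had 5 regions along its body. The one near its first listed start held 23 and 22 fragments and the one near its last listed start 15 and 13. The tallest of the 5, with 56 and 53 fragments (fold 10.3 and 9.49), lay at chr12:3855736-3856439, with summits at -35588 and -35715 bp from the nearest listed start.

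The sides were then set against each other. The activating side held COMPASS, acetyltransferases, Kdm6a, Kdm6b, Setd2 and Dot1l. The repressive side held Polycomb, deacetylases, Kdm1a, Kdm5a and Kdm5b. PR-DUB was counted there as part of Polycomb, though it removes the ubiquitin that PRC1 adds. A boundary region was found at 13 of 17 activating, 20 of 22 repressive and 4 of 6 DNA methylation genes, against 39.5% of protein-coding genes in general. With a −log10 q of 5 or more asked of each peak, the counts were 13 of 17, 19 of 22 and 2 of 6, against 34.8%. The DNA methylation genes were then not above the background, with Tet1 just under that minimum at 4.97 in PPP2CA 1. At least 20 fragments at both summits left 12 of 17, 14 of 22 and 2 of 6, against 26.5%. The activating side then had a larger share than the repressive side, the reverse of the main count. Median summits in PPP2CA 1 and 2 were 61 and 64 fragments on the activating side, 40.5 and 42 on the repressive side and 18 and 19 for DNA methylation. Each median covers only genes with a boundary region. That of DNA methylation leaves out Dnmt1 (75 and 62 fragments) and Dnmt3a (56 and 53 at its tallest region), which were marked inside the gene only. Cbx7 on the repressive side and Ash2l, Kdm6a and Dot1l on the activating side were left out in the same way. The activating medians take Kmt2d and Men1 at their far ends, shared with Prkag1 and Map4k2, where both stood higher than near their own starts. In PPP2CA 1 the median of 61 is the far-end value of Men1. Other shared regions, such as that of Kdm5a on the repressive side, were also kept. In PPP2CA 1 the sides overlapped widely, from 15 to 273, from 9 to 150 and from 9 to 57 fragments. The medians of the fold were nearer to each other, at 7.37 and 7.45, 6.98 and 6.88, and 5.18 and 5.60. The differences between the sides were not tested. Once any region in the gene was counted, the sides stood at 16 of 17, 21 of 22 and 6 of 6, against 45.3% of all protein-coding genes. Gene length was not matched in this count.

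**Figure D2:**
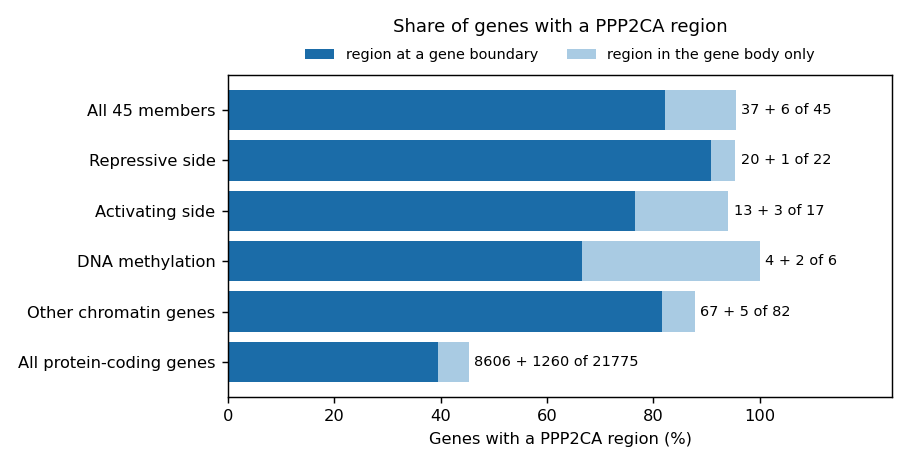
Percent of genes with a PPP2CA region at a gene boundary (dark) and in the gene body only (light), for the members, their 3 sides, the other chromatin genes and all protein-coding genes, with the counts beside each bar. The members reach 82.2% at a boundary and all protein-coding genes 39.5%.

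The members are long genes, with a median length of 42.4 kb against 17.2 kb for all protein-coding genes. Among all protein-coding genes, 12.1% of those of 50 kb or more and 3.92% of shorter ones had a region in the body only. Of the members, 4 of 22 long genes and 2 of 23 shorter ones were of this kind. In 8 of the 37 marked members (21.6%) the best boundary region was shared with another protein-coding gene, against 32.8% of all marked protein-coding genes. For Kmt2d, Men1, Ring1, Bmi1, Bap1, Kmt2b, Kdm5a and Hdac3 the fragments therefore cannot be assigned to one gene, with Zbtb32 the partner of Kmt2b and Phf7 that of Bap1.

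Tall summits were more common in the members than in marked genes at large. In 6 of the 37 (16.2%) the best boundary region held 100 or more fragments in both PPP2CA libraries, against 8.42% of the 8606 marked genes. They were Asxl2, Kmt2c, Kdm5a, Kdm6b, Ep300 and Kat7. At the other end, 9 members (24.3%) and 33.0% of marked genes held fewer than 20 fragments in at least 1 library. PPP2CA 2 was the higher of the libraries in 25 of 37 members (67.6%) and in 62.7% of all marked genes. Across the 60 member regions at boundaries and in bodies the binomial test called 0 as different between the PPP2CA libraries, with 1 at an unadjusted p under 0.05.

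Starts are listed in the RefSeq promoter table for 36 members, and PPP2CA regions lay at nearly all of them. A region came within 1 kb of a listed start in 34 of the 36, against 41.5% of all protein-coding genes with a listed start, and the exceptions were Kdm5b and Dot1l. In these 34 the mean summit position ranged from -868.5 to 443.5 bp, with 17 on either side of the start. By that mean the furthest upstream were Kmt2d, Crebbp at -808 and -753 bp and Ep300 at -751 and -648 bp, and Phc1 lay furthest downstream at 443 and 444 bp. In Bap1 the summit was at -214 bp in PPP2CA 1 and at 179 bp in PPP2CA 2.

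**Figure D3:**
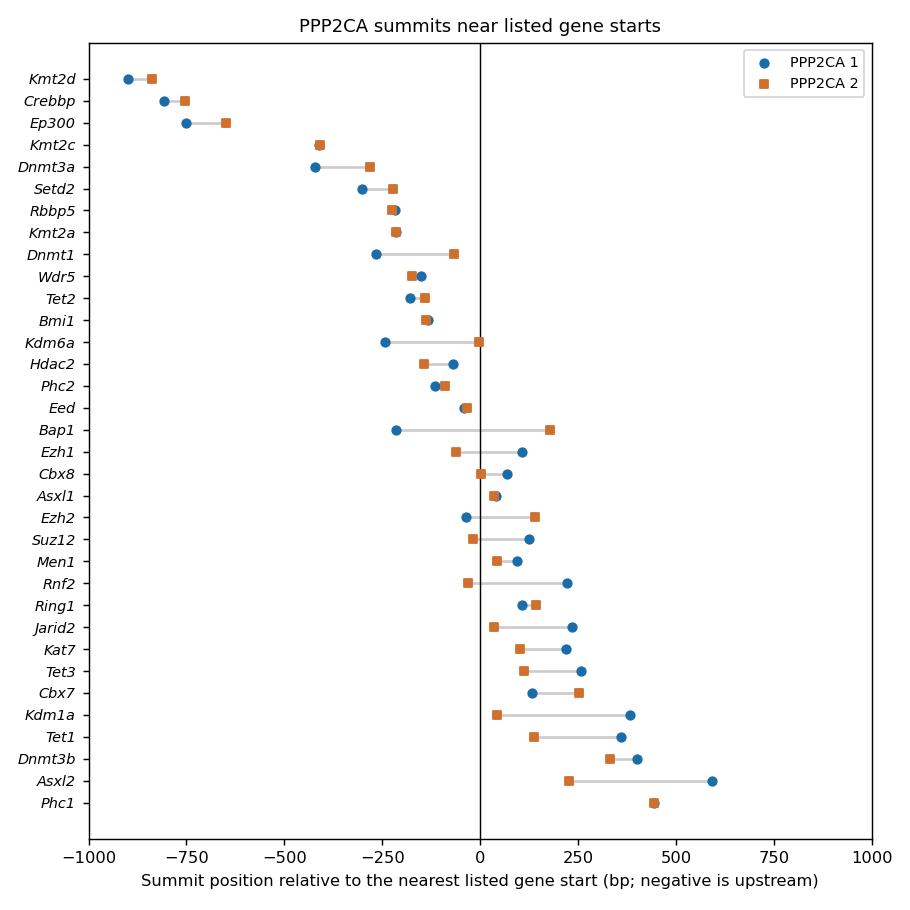
Position of the PPP2CA 1 (circles) and PPP2CA 2 (squares) summit relative to the nearest listed start, in bp along the direction of the gene, for the 34 members with a region near one. By the mean of both summits Kmt2d is furthest upstream and Phc1 furthest downstream, while the PPP2CA 1 summit of Asxl2, at 593 bp, is the single one furthest downstream.

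The bases before those starts were rich in CG. Of the 300-base promoter windows of protein-coding genes (250 before and 50 after the start) 38.3% were overlapped by a PPP2CA region. In the members it was 39 of 45 windows, from 33 genes, with a median of 29 CG dinucleotides and a GC content of 66.3%. Over all windows with a region these medians were 24 and 62.7%, and over all windows without one 5 and 51.3%. Member windows with a region ranged from 9 CG dinucleotides at Phc1 to 57 at Tet2, so the marked starts were not all of one kind. The 6 member windows without a region included Dot1l with 49 CG dinucleotides and Kdm5b with 17, above the median of unmarked windows.

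**Figure D4:**
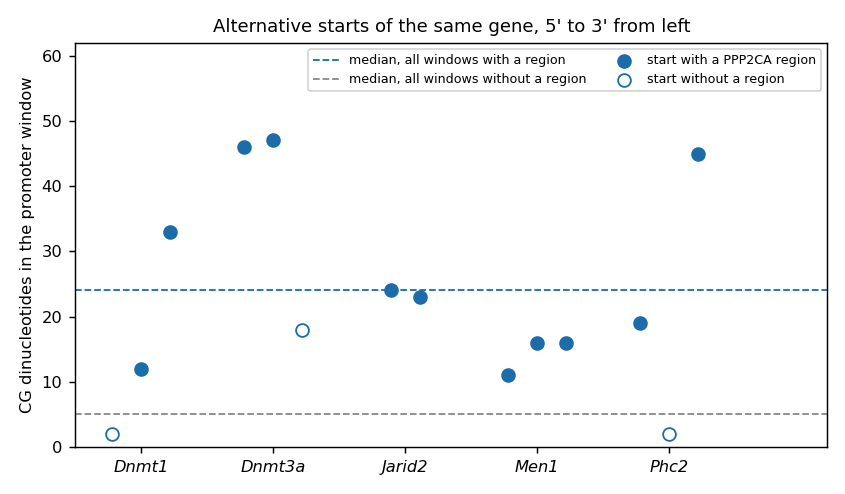
CG dinucleotides in the 300-base window of each listed start of the 5 members with more than 1 start, in 5′ to 3′ order. Filled circles are windows overlapped by a PPP2CA region and open circles are not, and dashed lines give the medians over all protein-coding windows with (24) and without (5) a region. The open circles of Dnmt1 and Phc2 lie at 2.

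Counting a start as marked only where a region overlapped its 300-base window, 3 members had both kinds of start, and the unmarked one held the fewest CG dinucleotides. By the wider rule of 1 kb the last start of Dnmt3a is marked too, which leaves Dnmt1 and Phc2. The windows of Dnmt1 held 2 at the outermost start and 12 and 33 at the marked ones, those of Phc2 held 2 at the middle start and 19 and 45 at the marked ones, and those of Dnmt3a 18 at the last start and 46 and 47 at the marked ones. This is a description of 3 genes, and some windows of a gene overlap.

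Sequence motifs were searched by exact letters on both strands, with overlaps between motifs left in. GGGCGG was in 79.5% of the 39 marked member windows, against 72.2% of all marked windows and 46.2% of all windows. TATAAA was in 1 of 39 (2.56%, a window of Jarid2), against 5.25% and 12.6%. CACGTG, the E-box, was in 15.4%, against 11.1% and 7.84%, and CCAAT in 38.5%, against 39.2% and 38.2%. The NRF1 core GCGCATGC was in both marked windows of Dnmt1 and in no other of the members (5.13%, against 6.42% and 3.51%), and CCGGAAGT in those of Kat7 and Asxl2 (5.13%, against 10.2% and 5.15%). TGACGTCA, the CRE motif, was in the Cbx8 window alone (2.56%, against 4.0% and 2.23%), and AAGATGGCG, the YY1 motif, in 0 of 39 (against 3.83% and 1.83%). In Asxl2 the ETS match lies 102 bases before the start and the SP match 140, and in Kat7 the CCAAT matches lie 92 and 232 bases before it, as capitals show in the sequences above.

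The other genes of these pathways that are no members gave a similar count. Of 82 further chromatin genes, 67 (81.7%) had a boundary region, with a median of 41 and 39 fragments. Further Polycomb genes had one at 20 of 21 (Rbbp4, Pcgf5 and Rbbp7 the best ranked), further trithorax genes at 9 of 10 (Hcfc1, Ash1l, Setd1a) and further acetyltransferase genes at 7 of 8 (Brpf1, Ing5, Kat6b). Further DNA methylation genes had one at 7 of 8, demethylases at 7 of 9 (Kdm4a, Kdm3b, Kdm1b) and other histone methyltransferases at 10 of 13. The tallest boundary summit of the 82 genes was that of Nsd3, with 311 and 335 fragments, and by rank of −log10 q Nsd3, Carm1 and Nsd1 were the best of those methyltransferases. Deacetylase genes and their partners had the lowest share, 7 of 13 (Ncor1, Rcor1, Mta2), with Hdac8, Hdac9 and Hdac11 free of any region.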

How the data were processed

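Groups and replicate numbers came from the sample titles. For every library the authors deposited 1 list of peaks, in the narrowPeak layout of MACS2, and nothing says that libraries came from separate mice. Per the submitters' processing notes, the tools were ChIPseeker, HOMER, deepTools, MACS2, BWA and Trimmomatic and the builds mm10 and GRCm38, with no roles. Whether IgG entered the calling: not given in the sources used here. The deposited values of a peak are a fold, which is a ratio over local background, −log10 p and −log10 q values and a score, used only to describe and rank peaks within a list. Summit fragments and background were solved from the authors' fold and −log10 p, taken as a Poisson tail, with whole numbers for 100% of peaks in each list (−log10 p matched within 0.01% of its value). Total reads were not used here.

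Peaks were joined when they shared at least 1 bp. Gene entries placed below 3 Mb, other than on Y, were left out. Best meant the worse of both within-library ranks of −log10 q, among regions in the boundary windows. The summit fragments of the PPP2CA libraries were compared at all PPP2CA regions by an exact binomial test (SciPy 1.17.1) with Benjamini-Hochberg adjustment at 0.05. The steps were tested on simulated data. The members, classes, lists and motifs were chosen with earlier results of these data known. Values per library are given for PRC2, for the 3 best of every other class and for members with an IgG peak or a body region only. Those of the remaining members, the second regions and the genes singled out by a share or a motif were chosen after their values were seen. Sequences and starts are from RefSeq tables of GRCm38.p6, which matched 36 of the 45 members. Starts were not used here for Cbx2, Kmt2b, Kmt2e, Ash2l, Kdm5a, Kdm6b, Kat6a, Hdac1 and Hdac3. The best ranked of the further DNA methylation genes are not reported here by name.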

Additional observations from a re-analysis of the deposited data

How the results depend on the processing

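The counts of members, of the activating and repressive sides and of other chromatin genes stayed within 1.5 times under every alternative run, as did the share of all protein-coding genes. The order of the sides by share did change with at least 20 fragments at both summits. The activating side then had 12 of 17 genes and the repressive side 14 of 22, against 13 of 17 and 20 of 22 in the main count. The count of DNA methylation genes at a boundary fell to 2 of 6, against 4 of 6, both when peaks needed a −log10 q of at least 5 (34.8% of all protein-coding genes) and with at least 20 fragments at both summits. The minimum of 20 fragments left 28 of the 45 members, without Ezh1, Hdac3, Kdm1a, Phc1, Phc2, Rbbp5, Cbx2, Dnmt3b and Tet1, against 26.5% of all protein-coding genes. A window of 500 bp dropped Kdm6b, one of 2 kb added Kdm6a, keeping regions with an IgG peak added Kmt2e, and a reciprocal overlap of 50% dropped Ezh1. Without PPP2CA 1 Cbx7 was added, and without PPP2CA 2 Dot1l. Members with an IgG peak numbered 1 to 4 without 1 of the IgG libraries (1 without IgG 2) and 1 with −log10 q of 5 or more. The median fold in PPP2CA 1 was 7.35 with that minimum. Counting listed starts in place of outer boundaries, an alternative chosen after seeing the data, gave 34 of 36 members and 6 of 6 DNA methylation genes. The share over all protein-coding genes with a listed start was 41.5%. No paired analysis was possible because the results are counts of called peaks, from no test between groups, and the lists hold no IgG value where no IgG peak was called. Depth limits the IgG side most, and weak regions such as Cbx2 and Dnmt3b rest on 9 and 12 fragments.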

Other observations

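Places called in 1 PPP2CA library alone were not used in the comparisons. The members had 14 of them in 9 genes, 2 from PPP2CA 1 and 12 from PPP2CA 2, and 11 lay inside gene bodies. Apart from the one at the start of Dot1l, with 60 fragments, they held 6 to 15 fragments. Phc2 had 4 of them and Cbx7 had 3.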
